A study of Ovis aries with 20 samples.

Results

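The pancreas of sheep fetuses without CFTR was compared with that of wild-type (WT) fetuses at 120 days of gestation, across every gene of a bulk RNA-seq count table. The libraries were those labelled 120 days, 2 CFTR−/− and 2 WT, which makes 4 of the 20 samples. The remaining libraries, 2 of each genotype at 65, 80 and 100 days and at term (147 days), served to estimate the spread between animals and to show the same genes at other ages. The study followed the development of the pancreas in a sheep model of cystic fibrosis. The CFTR−/− fetuses were American Romney clones, made by nuclear transfer from 1 male line of fetal fibroblasts whose CFTR gene had been targeted in exon 2, and the WT fetuses were bred naturally. The labels give both WT animals of 120 days 1 shared number and the CFTR−/− animals separate numbers, and do not say whether the shared number marks 1 litter. The sex of the WT fetuses was not found in the sources used here. Genotype cannot be told apart from cloning, from breeding or, where WT fetuses were female, from sex.

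CFTR is an anion channel in the apical membrane of duct cells. It passes chloride and bicarbonate into the fluid that carries the enzymes of acinar cells to the gut, and where it is missing the ducts become blocked by thick secretion and the exocrine pancreas is lost. A fetal pancreas also holds islet cells, stroma, nerves, vessels, fat and blood cells, and bulk RNA counts the transcripts of all of them together.

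Total counts were 64397668 and 58808503 in WT animals 1 and 2, and 63486596 and 63703746 in CFTR−/− animals 1 and 2. Levels are given below in CPM, counts scaled to a fixed library size after TMM normalization, always in that order of animals. In these libraries 3 counts, taken as the floor, correspond to 0.0425, 0.0544, 0.0520 and 0.0594 CPM. Floors and counting intervals cover counting error only, not the difference between animals. The WT animals stood further apart from each other than the CFTR−/− animals did. Of 19522 genes tested, 3883 were more than 4-fold apart between both WT animals (1683 higher in animal 2) and 1377 between both CFTR−/− animals. The median absolute log2 ratio between animals was 0.80 in WT and 0.35 in CFTR−/−. Each WT animal is therefore shown apart throughout, and the markers that part them are given with the cell types below.

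In CFTR−/− pancreas at 120 days the genes of digestive enzymes, islet cells and the unfolded protein response were mostly higher than in WT, and those of fat and red blood cells mostly lower. The size depended on the WT animal. Median log2 ratios against WT animals 1 and 2 were 0.20 and 1.74 for islet genes, -0.75 and -3.35 for fat and -1.63 and -3.90 for red blood cells. Genes of immune cells were mostly lower against WT animal 2 but not against WT animal 1. Among single genes, both CFTR−/− animals lay above both WT animals for SCTR, GPR143, PSRC1 and INHBE, and below both for TMT1A, SMPDL3A, SPOCK2 and NXPH1. At other ages GPR143 reached 10.9 CPM in WT, inside its CFTR−/− range. None of these differences at 120 days passed the test across all genes. The quasi-likelihood test in edgeR called 0 of 19522 genes (0%), where a call needs an adjusted p of 0.01 or less and a fold change of 1.5 or more (0.58 on the log2 scale), and its Benjamini-Hochberg adjusted p was 1 for every gene.

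The same test gave 688 genes (3.52%) at an unadjusted p under 0.05, fewer than the 5% that evenly spread p-values would give. At an unadjusted p of at most 0.01 with the same fold limit it gave 102 genes (0.522%), 49 higher in CFTR−/− (0.251%) and 53 lower (0.271%). That count moved to 647 without WT animal 1, 68 without WT animal 2, 67 without CFTR−/− animal 1 and 17 without CFTR−/− animal 2. DESeq2's Wald test called 10 genes (0.0512%) at the adjusted threshold, and edgeR's likelihood ratio test called 3. An exact permutation test of 2 against 2 animals cannot give a two-sided p below 0.333, so every smaller p here rests on the spread pooled over genes and groups.

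All 49 genes on the high side lay above both WT animals, and their CFTR−/− mean was at least 1.5-fold above each. On the low side 47 of 53 lay below both WT animals, and in 40 the CFTR−/− mean was at least 1.5-fold below each. WT animal 2 was more than 4-fold above WT animal 1 in 28 of those 53 genes, but in only 4 of the 49. Over all genes tested, both CFTR−/− animals were above both WT animals in 2573 (13.2%) and below them in 2459 (12.6%). The CFTR−/− mean was at least 1.5-fold above each WT animal in 965 genes (4.94%) and below each in 957 (4.90%). Against WT animal 1 alone it was that far above in 3467 (17.8%) and below in 3720 (19.1%), and against WT animal 2 alone above in 5306 (27.2%) and below in 4343 (22.2%).

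CFTR transcripts were 24.2 and 13.7 CPM in the WT animals and 12.2 and 27.6 CPM in the CFTR−/− animals. Both genotypes overlapped, with 1 high and 1 low animal in each (log2 fold change 0.07, SE 0.36, unadjusted p = 0.85). The direction turned with the animals used: the log2 value was -0.29 without WT animal 2 and -0.62 without CFTR−/− animal 2. The count sums reads over all exons of the gene, so it does not read the targeted stretch of exon 2 apart and checks no label.

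SCTR, the secretin receptor through which duct cells are driven to secrete bicarbonate, was 17.7 and 15.01 CPM in the WT animals and 34.7 and 99.8 CPM in the CFTR−/− animals. Both WT animals sat close together and both CFTR−/− animals above them, the second about 3 times as high as the first (log2 fold change 2.04, SE 0.50, unadjusted p = 0.00106). SCTR also separated the genotypes at every other age, for example 53.6 and 55.5 CPM in WT against 58.9 and 65.7 CPM in CFTR−/− at 65 days. KCNE3, a subunit of potassium channels in secretory epithelia, was 10.02 and 8.004 CPM in WT against 27.1 and 31.9 CPM in CFTR−/− (log2 fold change 1.71, SE 0.53, unadjusted p = 0.00585), again with no overlap. PSRC1, a protein of the mitotic spindle, was 13.9 and 7.79 CPM in WT against 24.2 and 26.9 CPM in CFTR−/−, each CFTR−/− animal above each WT animal (log2 fold change 1.24, SE 0.34, unadjusted p = 0.0023).

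INHBE, a TGF-β family subunit known as a target of the unfolded protein response, was 2.40 and 2.85 CPM in the WT animals and 8.48 and 36.0 CPM in the CFTR−/− animals. CFTR−/− animal 2 stood far above animal 1, and both stood above WT (log2 fold change 3.08, SE 0.90, unadjusted p = 0.0038). MRLN, a small inhibitor of the calcium pump of the endoplasmic reticulum, was 3.29 and 1.34 CPM in WT against 7.61 and 11.7 CPM in CFTR−/− (log2 fold change 2.06, SE 0.58, unadjusted p = 0.00315). GPR143, an X-linked receptor of pigment organelles, was 0.609 and 1.16 CPM in WT against 7.73 and 10.3 CPM in CFTR−/− (log2 fold change 3.35, SE 0.83, unadjusted p = 0.00114). In both genes the lower CFTR−/− animal was more than 2 times the higher WT animal. GPR143 did not separate the genotypes over all ages, with 0.609 to 10.9 CPM in WT and 3.86 to 11.4 CPM in CFTR−/−.

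CCL26, a chemokine that attracts eosinophils, was 131 and 108 CPM in the WT animals and 409.5 and 486 CPM in the CFTR−/− animals (log2 fold change 1.91, SE 0.58, unadjusted p = 0.00512). It was also higher in both CFTR−/− animals than in both WT animals at each of the 4 other ages. RBP4, which carries retinol, was 64.4 and 45.1 CPM in WT against 149 and 151 CPM in CFTR−/− (log2 fold change 1.45, SE 0.49, unadjusted p = 0.00951), and ALDH1A3, which makes retinoic acid, was 30.2 and 23.1 CPM in WT against 65.3 and 59.6 CPM in CFTR−/− (log2 fold change 1.23, SE 0.37, unadjusted p = 0.00448). For both the CFTR−/− animals lay close together and clear of WT. HOPX, a homeodomain protein that does not bind DNA, was 2.93 and 7.89 CPM in WT against 13.7 and 15.6 CPM in CFTR−/− (log2 fold change 1.44, SE 0.48, unadjusted p = 0.00933), and the coagulation factor F10 16.1 and 14.1 CPM in WT against 32.7 and 38.1 CPM in CFTR−/− (log2 fold change 1.23, SE 0.41, unadjusted p = 0.00959). HIBADH, an enzyme of valine breakdown, was 30.2 and 33.3 CPM in WT against 58.3 and 52.9 CPM in CFTR−/− (log2 fold change 0.81, SE 0.24, unadjusted p = 0.00421), and JAGN1, a protein of the secretory pathway, 24.6 and 32.8 CPM in WT against 45.7 and 59.5 CPM in CFTR−/− (log2 fold change 0.87, SE 0.28, unadjusted p = 0.00638). None of these 4 overlapped between genotypes.

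**Figure D1:**
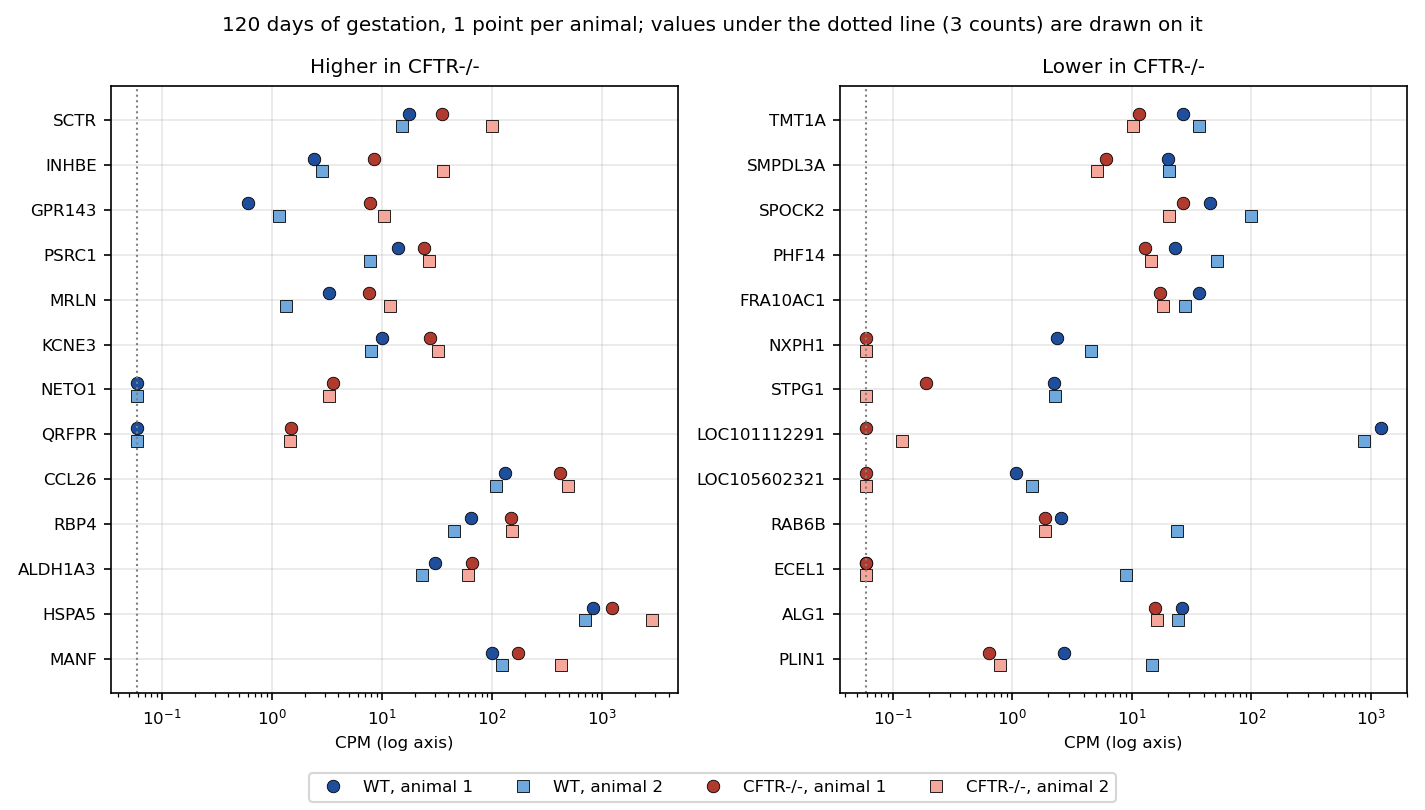
Level of selected genes at 120 days in CPM on a log axis, 1 point per animal (blue WT, red CFTR−/−; circles animal 1, squares animal 2), genes higher in CFTR−/− on the left and lower on the right; values under the dotted line at 3 counts are drawn on it. The red and blue points of each gene do not overlap, save that ECEL1 of WT animal 1 is also drawn on the line, and for RAB6B, ECEL1 and PLIN1 WT animal 2 lies far above WT animal 1.

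On the low side TMT1A, a thiol methyltransferase, had the smallest p of all genes. It was 26.96 and 36.3 CPM in the WT animals and 11.5 and 10.1 CPM in the CFTR−/− animals, each CFTR−/− animal well under the lower WT animal (log2 fold change -1.55, SE 0.28, unadjusted p = 7.29e-05). TMT1A was lower in both CFTR−/− animals at each of the 4 other ages as well. SMPDL3A, a phosphodiesterase related to acid sphingomyelinase, was 20.1 and 20.4 CPM in WT against 6.08 and 5.13 CPM in CFTR−/− (log2 fold change -1.85, SE 0.44, unadjusted p = 0.000758). Its 2 WT values were nearly equal, and both CFTR−/− values lay far below them. At 80 days SMPDL3A went the other way, at 5.70 and 5.34 CPM in WT against 8.62 and 6.70 CPM in CFTR−/−. FRA10AC1, a nuclear protein, was 36.1 and 27.6 CPM in WT against 17.1 and 18.04 CPM in CFTR−/− (log2 fold change -0.86, SE 0.23, unadjusted p = 0.00196), also without overlap.

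SPOCK2, a proteoglycan of the extracellular matrix, was 45.3 and 99.2 CPM in the WT animals and 26.7 and 20.6 CPM in the CFTR−/− animals (log2 fold change -1.61, SE 0.37, unadjusted p = 0.000654). PHF14, a chromatin protein, was 22.9 and 51.8 CPM in WT against 12.9 and 14.6 CPM in CFTR−/− (log2 fold change -1.44, SE 0.34, unadjusted p = 0.000796). For both, WT animal 2 was the highest and WT animal 1 still stood above both CFTR−/− animals. HHIP, which binds Hedgehog ligands, was 6.79 and 2.85 CPM in WT against 1.06 and 1.13 CPM in CFTR−/− (log2 fold change -2.14, SE 0.65, unadjusted p = 0.00488), and CHRD, which binds BMP ligands, 20.7 and 9.49 CPM in WT against 2.72 and 2.08 CPM in CFTR−/− (log2 fold change -2.65, SE 0.86, unadjusted p = 0.00769). In both of these WT animal 1 was the highest. The transcription factor KLF5 was 21.95 and 15.6 CPM in WT against 11.7 and 7.53 CPM in CFTR−/− (log2 fold change -0.97, SE 0.30, unadjusted p = 0.00585).

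NXPH1, a secreted ligand of neurexins, was 2.38 and 4.56 CPM in the WT animals and 0.0520 and 0 CPM in the CFTR−/− animals. It was all but absent from CFTR−/−, where both libraries together held 3 counts, and the ratio of WT to CFTR−/− was 120.2 with a 95% counting interval of 40.9 to 585. STPG1, a protein with sperm-tail repeats, was 2.23 and 2.25 CPM in WT against 0.191 and 0.0594 CPM in CFTR−/− (log2 fold change -4.13, SE 1.07, unadjusted p = 0.00179). NXPH1 and STPG1 were each lower in all 10 CFTR−/− libraries of the 5 ages than in any WT library. Across ages the highest CFTR−/− value was 0.436 CPM for NXPH1 and 0.313 CPM for STPG1, against lowest WT values of 0.891 and 0.554 CPM.

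RAB6B, a neuronal GTPase of vesicle traffic, was 2.57 and 23.8 CPM in the WT animals and 1.85 and 1.88 CPM in the CFTR−/− animals (log2 fold change -2.82, SE 0.74, unadjusted p = 0.00174). WT animal 1 lay close to both CFTR−/− animals, and the difference rested mainly on WT animal 2. The same holds for ECEL1, a peptidase of neurons, at 0.0283 and 8.87 CPM in WT against 0 and 0 CPM in CFTR−/−. With 0 counts in CFTR−/−, the mean of WT was at least 79.9-fold higher at the floor of 3 counts per library (unadjusted p = 0.00295 in edgeR), a value that WT animal 2 alone supplies.

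Other genes were at 0 in WT. NETO1, an auxiliary subunit of kainate receptors (chromosome 23, 5020235 to 5128025 in Oar_v4.0), had 0 counts in both WT animals and 3.61 and 3.29 CPM in CFTR−/−, at least 71.1-fold higher (edgeR unadjusted p = 0.00248). The neighbouring locus LOC105604393 (chromosome 23, 4982657 to 5019576), chosen after its values were seen, had 0 counts in WT and 4.19 and 4.12 CPM in CFTR−/−, at least 85.8-fold higher. QRFPR, the receptor of the peptide QRFP, was 0 in both WT animals and 1.49 and 1.45 CPM in CFTR−/−, at least 30.3-fold higher. In each of the 3 both CFTR−/− animals held nearly the same level. None of the 3 was 0 in all WT libraries of other ages: NETO1 reached 12.8 CPM, LOC105604393 9.01 CPM and QRFPR 2.03 CPM in WT.

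Loci without a gene name are given by their number. LOC105605981 (unplaced in Oar_v4.0) was 42.1 and 37.9 CPM in the WT animals and 1.54 and 0.218 CPM in the CFTR−/− animals (log2 fold change -5.49, SE 1.12, unadjusted p = 0.000201). LOC105602321 (chromosome 15, 54681138 to 54682950) was 1.08 and 1.47 CPM in WT and 0 in CFTR−/−, at least 22.9-fold higher in WT. It had 0 counts in all 10 CFTR−/− libraries of every age, while the lowest WT library held 0.482 CPM. On the high side LOC101118216 was 31.1 and 29.98 CPM in WT against 81.3 and 137 CPM in CFTR−/− (log2 fold change 1.84, SE 0.46, unadjusted p = 0.00112), and LOC101108147 was 0.269 and 0 CPM in WT against 1.75 and 2.54 CPM in CFTR−/− (log2 fold change 3.93, SE 0.95, unadjusted p = 0.000937). All 4 loci separated the genotypes at 120 days.

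LOC101112291, a long noncoding RNA on chromosome X (62537188 to 62573407) that was chosen after its values were seen, was 1222 and 871 CPM in the WT animals and 0 and 0.119 CPM in the CFTR−/− animals (log2 fold change -14.13, SE 4.02, unadjusted p = 0.00356). Both WT animals were high, and the CFTR−/− animals held 0 and 6 counts. Over all ages 6 of 10 WT libraries held more than 100 CPM and 4 less than 1 CPM, while no CFTR−/− library exceeded 1.45 CPM. Of the WT libraries, those 6 held 0.609 to 1.80 CPM of the X-linked GPR143 and those 4 held 4.02 to 10.9 CPM. In the list of X inactivation and escape genes 10 of 11 tested members were lower in CFTR−/− (median log2 fold change -0.22, against -0.05 over all genes tested), 5 below WT without overlap (12.6% of all genes). Its summed level was 1102 and 1023 CPM in WT and 912 and 911 CPM in CFTR−/−, RBMX having the highest mean CPM of its members over the 4 animals. KDM6A, a histone demethylase that escapes X inactivation, was 36.4 and 19.96 CPM in WT against 16.8 and 13.96 CPM in CFTR−/− (log2 fold change -0.87, SE 0.31, unadjusted p = 0.0133), and ZFX, another escape gene, 33.6 and 27.8 CPM in WT against 20.6 and 20.9 CPM in CFTR−/− (log2 fold change -0.57, SE 0.26, unadjusted p = 0.0478). Whether sex differs between the 4 animals was not tested.

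DESeq2's 10 genes were TMT1A, NXPH1, NETO1, CXCL13, LOC105605981, LOC105602321, LOC101108147, LOC101112291, LOC105604393 and 1 more unnamed locus. TMT1A had an adjusted p of 0.000507 in DESeq2, NXPH1 0.00201 and NETO1 0.00201. CXCL13, a chemokine that attracts B cells, was 0 and 9.02 CPM in WT against 0 and 0 CPM in CFTR−/−, so its call came from WT animal 2 alone and the genotypes overlapped at 0.

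At 120 days every acinar enzyme gene tested had the higher fitted level in CFTR−/−. Of this list 19 of 19 tested members had a log2 fold change above 0 and 16 were above WT without overlap, where 13.2% of all genes were. The median was 0.79 (0.72 against WT animal 1, 1.10 against WT animal 2), beside -0.05 over all genes (-0.01 and 0.05). The summed level was 80642 and 57917 CPM in WT and 104319 and 106721 CPM in CFTR−/−, and the member with the highest mean was CPA1, a carboxypeptidase. Both CFTR−/− animals stood above WT animal 1, the higher of the WT animals. Other ages differed. The sum was 24294 and 23083 CPM in WT against 13702 and 10426 CPM in CFTR−/− at 65 days. At 100 days it was 86766 and 61429 CPM in WT against 56562 and 4323 CPM in CFTR−/−, and at 80 days and term the genotypes overlapped. None of the list passed the test. For this and each further list, 8658 of all genes tested were above 0 and 10764 below.

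CPA1 was 25886 and 15231 CPM in the WT animals and 30258 and 29075 CPM in the CFTR−/− animals (log2 fold change 0.53, SE 0.93, unadjusted p = 0.58), so that CFTR−/− lay above WT by less than the WT animals differed from each other. CLPS, the cofactor of pancreatic lipase, was 2755 and 2153 CPM in WT against 8294 and 11656 CPM in CFTR−/− (log2 fold change 2.02, SE 1.12, unadjusted p = 0.0917), and ZG16, a lectin of enzyme granules, 34.6 and 38.9 CPM in WT against 135 and 166 CPM in CFTR−/− (log2 fold change 2.04, SE 0.96, unadjusted p = 0.0522). In both the CFTR−/− animals stood well above WT. PNLIP, the lipase itself, was low in all animals at 1.11 and 0.672 CPM in WT against 6.64 and 3.72 CPM in CFTR−/− (log2 fold change 2.54, SE 1.23, unadjusted p = 0.0572). The elastase CELA3B was 3885 and 4158 CPM in WT against 4239 and 6217 CPM in CFTR−/− (log2 fold change 0.38, SE 0.85, unadjusted p = 0.661), the granule protein SYCN 444 and 445 CPM in WT against 560.4 and 977 CPM in CFTR−/−, and AQP8, a water channel of acinar cells, 844 and 695 CPM in WT against 1048 and 1096 CPM in CFTR−/−. Their CFTR−/− values lay above WT by little, for SYCN mainly in animal 2. The trypsinogen PRSS2 (5314 and 8353 CPM in WT against 6953 and 8517 CPM in CFTR−/−) and the lipase CEL (16222 and 12020.2 CPM in WT against 16787 and 14822 CPM in CFTR−/−) overlapped between genotypes. Trypsinogens and elastases are families of near-identical copies whose reads may be shared, so their single values are uncertain.

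Of the acinar transcription factors 3 of 4 were above 0 (median 0.04; -0.15 and 0.94 against WT animals 1 and 2), 1 above WT without overlap (13.2% of all genes). Their summed level was 971 and 509.7 CPM in WT and 1232 and 1322 CPM in CFTR−/−, most of it XBP1. XBP1, which drives genes of the secretory pathway, was 816 and 449 CPM in the WT animals and 1119.8 and 1219 CPM in the CFTR−/− animals (log2 fold change 0.89, SE 0.48, unadjusted p = 0.085). Both CFTR−/− animals were above both WT animals, and WT animal 2 was the lowest of the 4.

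Islet genes leaned the same way, most of all against WT animal 2. 28 of 28 endocrine members were above 0 and 15 lay above WT without overlap (13.2% of all genes), with a median of 0.66 that was 0.20 against WT animal 1 and 1.74 against WT animal 2. The summed level was 4684 and 2094 CPM in WT and 5761 and 7655 CPM in CFTR−/−, GCG having the highest mean, and IAPP was at 0 in all 4 animals. The glucagon gene GCG was 2662 and 825 CPM in WT against 2232 and 3289 CPM in CFTR−/−, with WT animal 1 inside the range of CFTR−/−. SST, for somatostatin, was 486 and 382 CPM in WT against 1107 and 1869.5 CPM in CFTR−/− (log2 fold change 1.78, SE 0.67, unadjusted p = 0.0182), and PPY, for pancreatic polypeptide, 14.7 and 56.7 CPM in WT against 134 and 346 CPM in CFTR−/− (log2 fold change 2.75, SE 1.11, unadjusted p = 0.0264). Both were clear of WT, with CFTR−/− animal 2 the highest. GIP, an incretin hormone, was 0.170 and 0 CPM in WT against 1.39 and 4.56 CPM in CFTR−/− (log2 fold change 4.98, SE 1.68, unadjusted p = 0.00971), the only member past the unadjusted limit. The secretory granule gene CHGA was 277 and 175 CPM in WT against 326 and 302 CPM in CFTR−/− (log2 fold change 0.47, SE 0.58, unadjusted p = 0.43), the calcium sensor SCGN 113 and 66.3 CPM in WT against 149 and 187 CPM in CFTR−/− (log2 fold change 0.91, SE 0.57, unadjusted p = 0.131) and the islet transcription factor ISL1 20.5 and 7.59 CPM in WT against 22.7 and 27.7 CPM in CFTR−/− (log2 fold change 0.85, SE 0.70, unadjusted p = 0.248). These 3 did not overlap, but WT animal 1 came close to the lower CFTR−/− animal. In bulk tissue, more cells of a type and more RNA per cell cannot be told apart, here and in every list.

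Genes of the unfolded protein response mostly had the higher fitted level in CFTR−/−, and their sum was highest in CFTR−/− animal 2. None of them passed the test across all genes. Of the unfolded protein response list 28 of 31 were above 0 and 19 lay above WT without overlap, where 13.2% of all genes did (median 0.64; 0.64 and 0.90 against WT animals 1 and 2). The summed level was 6712 and 5917 CPM in WT and 8949 and 15079.8 CPM in CFTR−/−, HSP90B1 having the highest mean. HSPA5, the main chaperone of the compartment, was 817 and 697 CPM in the WT animals and 1236 and 2847 CPM in the CFTR−/− animals (log2 fold change 1.43, SE 0.55, unadjusted p = 0.02), and HSP90B1 924 and 1029 CPM in WT against 1473 and 3220.5 CPM in CFTR−/− (log2 fold change 1.26, SE 0.56, unadjusted p = 0.0398). MANF, a small protein of that compartment, was 99.2 and 122 CPM in WT against 173 and 421 CPM in CFTR−/− (log2 fold change 1.42, SE 0.48, unadjusted p = 0.0104), and the cochaperone SDF2L1 33.0 and 53.0 CPM in WT against 75.2 and 167 CPM in CFTR−/− (log2 fold change 1.49, SE 0.64, unadjusted p = 0.0337). In each of these 4, CFTR−/− animal 1 stood moderately above WT and animal 2 about 2 times higher again.

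Genes of the heat shock list mostly overlapped between genotypes. 13 of 17 were above 0 (median 0.45; 0.54 and 0.30 against WT animals 1 and 2), but only 1 lay above WT without overlap (13.2% of all genes), and the summed level was 3641 and 3701 CPM in WT and 2949 and 6017 CPM in CFTR−/−. HSPA1A, the member with the highest mean, was 989 and 810.4 CPM in WT against 393 and 1231 CPM in CFTR−/−, its lowest and highest values both in CFTR−/−. SERPINH1, the collagen chaperone, was 256 and 287 CPM in WT against 311 and 432 CPM in CFTR−/− (log2 fold change 0.45, SE 0.40, unadjusted p = 0.274).

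Duct markers mostly overlapped between genotypes: 19 of 20 were above 0 (median 0.34; 0.18 and 0.73 against WT animals 1 and 2), 4 above and 1 below WT without overlap (13.2% and 12.6% of all genes). Their sum was 1586 and 1264 CPM in WT and 1524 and 2199.6 CPM in CFTR−/−, KRT8 having the highest mean. The keratins KRT8 (387 and 326 CPM in WT against 370.3 and 525 CPM in CFTR−/−) and KRT19 (53.1 and 67.2 CPM in WT against 56.4 and 115 CPM in CFTR−/−) and the transcription factor ELF5 (16.6 and 8.91 CPM in WT against 11.7 and 16.2 CPM in CFTR−/−) overlapped between genotypes. PROM1, a protein of membrane protrusions, was the member on the low side at 0.907 and 5.34 CPM in WT against 0.832 and 0.436 CPM in CFTR−/− (log2 fold change -2.29, SE 1.04, unadjusted p = 0.0431), with WT animal 2 far above the rest.

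Of the duct ion transport and mucin genes 13 of 31 were above 0 (median -0.17; -0.05 and 0.46 against WT animals 1 and 2), 5 above and 4 below WT without overlap, shares close to those of all genes (13.2% and 12.6%). AQP5, MUC5AC and SCNN1G were at 0 in all 4 animals, and the sum was 1218 and 1432 CPM in WT and 1853 and 1941 CPM in CFTR−/−, most of it TFF2. TFF2, a trefoil peptide secreted with mucus, was 700.4 and 909 CPM in the WT animals and 1262 and 1352 CPM in the CFTR−/− animals (log2 fold change 0.70, SE 0.80, unadjusted p = 0.398), both CFTR−/− animals above both WT animals. Its relative TFF3 was 0.0567 and 0.145 CPM in WT against 1.21 and 0.277 CPM in CFTR−/− (log2 fold change 2.88, SE 1.66, unadjusted p = 0.104), a low level throughout. MUC13, a mucin of the cell surface, was 3.78 and 0.454 CPM in WT against 9.93 and 4.95 CPM in CFTR−/− (log2 fold change 1.81, SE 0.83, unadjusted p = 0.0452), and only WT animal 2 was far below CFTR−/−.

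**Figure D2:**
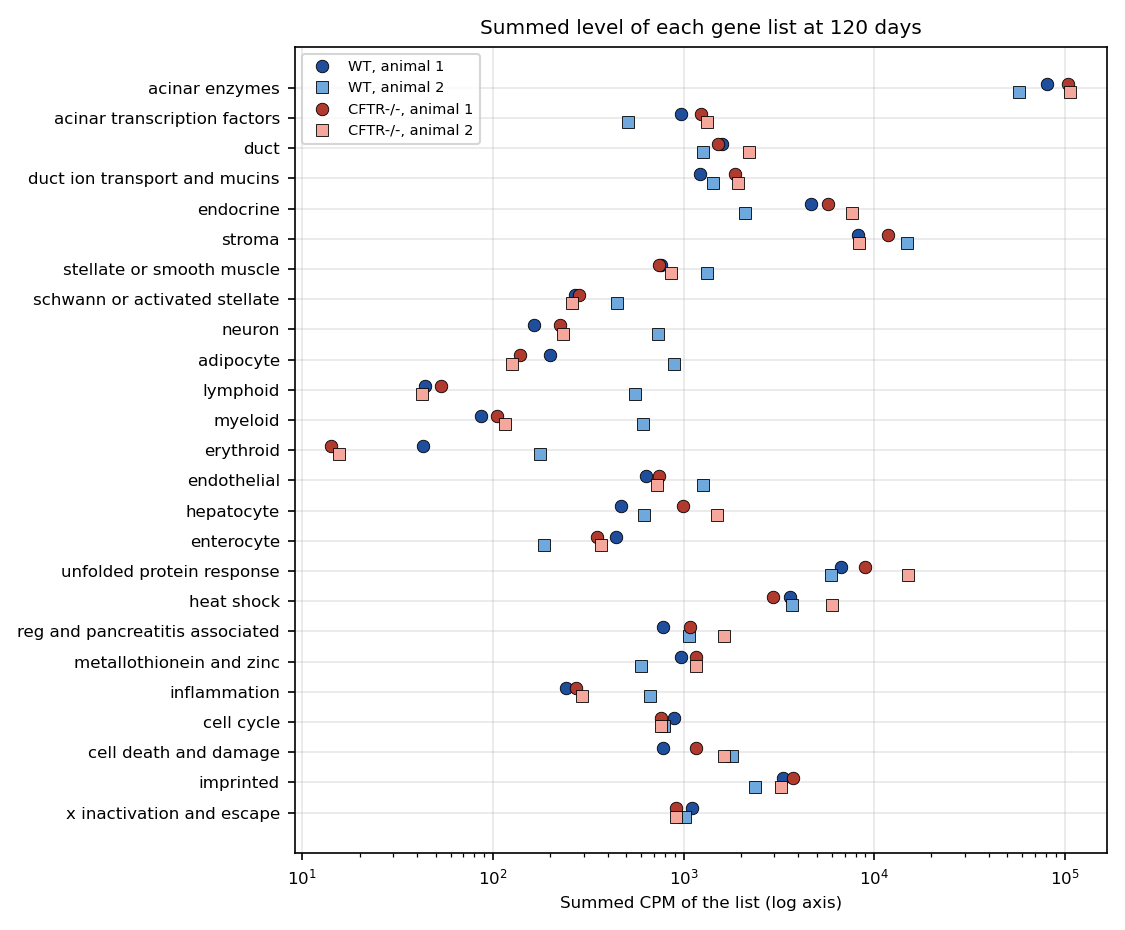
Summed CPM of the members of each of 25 gene lists at 120 days on a log axis, 1 point per animal (blue WT, red CFTR−/−; circles animal 1, squares animal 2). In the neuron, adipocyte, lymphoid, myeloid and erythroid lists WT animal 2 lies apart to the right of the other 3 animals.

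Immune cell genes were mostly highest in WT animal 2. Of the lymphoid list 24 of 25 were below 0 and 8 lay below both WT animals, against 12.6% of all genes. The median was -3.53 (-3.32 with genes at 0 in 1 genotype held at their floor, beside -0.04 over all genes), yet 0.08 against WT animal 1 and -4.24 against WT animal 2. The summed level was 43.9 and 559 CPM in WT and 53.2 and 42.4 CPM in CFTR−/−, so WT animal 2 held 12.7 times the level of WT animal 1, PTPRC having the highest mean (9.51 and 70.4 CPM in WT against 20.004 and 12.7 CPM in CFTR−/−). CD3E, of the T cell receptor, was 0.907 and 62.6 CPM in WT against 1.39 and 0.772 CPM in CFTR−/−, and CD79B, of the B cell receptor, 0.0142 and 32.2 CPM in WT against 0.0347 and 0 CPM in CFTR−/−. Both were under 2 CPM in every animal but WT animal 2. IL7R, the receptor of interleukin 7, was 0.553 and 23.1 CPM in WT against 0.191 and 0.139 CPM in CFTR−/− (log2 fold change -6.15, SE 2.38, unadjusted p = 0.0211). CD5, PTPRCAP and CD37 passed the unadjusted limit: CD5 was 0.142 and 13.8 CPM in WT against 0.0867 and 0 CPM in CFTR−/− (log2 fold change -7.22, SE 2.39, unadjusted p = 0.00879), PTPRCAP 4.71 and 84.9 CPM in WT against 3.92 and 5.03 CPM in CFTR−/− (log2 fold change -3.32, SE 1.08, unadjusted p = 0.00795) and CD37 3.74 and 21.5 CPM in WT against 2.88 and 2.22 CPM in CFTR−/− (log2 fold change -2.30, SE 0.76, unadjusted p = 0.00851). For all 3, WT animal 1 was much nearer to CFTR−/− than to WT animal 2.

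Of the myeloid list 17 of 18 were below 0 and 5 lay below WT without overlap (12.6% of all genes), with a median of -1.81 that was 0.45 against WT animal 1 and -2.70 against WT animal 2. Their sum was 86.8 and 616 CPM in WT and 105 and 116 CPM in CFTR−/−. The complement genes C1QB, C1QC and C1QA were 8.89 and 102 CPM in WT against 15.9 and 15.98 CPM in CFTR−/−, 9.41 and 98.2 CPM in WT against 14.8 and 14.8 CPM in CFTR−/− and 6.75 and 73.7 CPM in WT against 10.3 and 10.99 CPM in CFTR−/−. WT animal 1 was the lowest of the 4 in each. CYBB, a subunit of the phagocyte oxidase, was 16.2 and 23.8 CPM in WT against 10.8 and 10.2 CPM in CFTR−/− (log2 fold change -0.93, SE 0.40, unadjusted p = 0.0361), and LYZ, the lysozyme, 0.368 and 4.26 CPM in WT against 0.277 and 0.297 CPM in CFTR−/− (log2 fold change -3.00, SE 1.29, unadjusted p = 0.0363). In the inflammation list 19 of 23 were below 0, 2 above and 5 below WT without overlap, against 13.2% and 12.6% of all genes (median -0.35; 0.13 and -0.64 against each WT animal), with sums of 240.5 and 664 CPM in WT and 273 and 293 CPM in CFTR−/−. CXCL12, a chemokine of stroma with the highest mean of that list, was 43.7 and 241 CPM in WT against 43.9 and 48.5 CPM in CFTR−/−, and TNF 0.142 and 3.09 CPM in WT against 0 and 0 CPM in CFTR−/−, both high in WT animal 2 only. With 0 counts in CFTR−/−, the WT mean of TNF was at least 28.96-fold higher, and the cytokine IL1A was low throughout at 0.128 and 0.726 CPM in WT against 0.0867 and 0 CPM in CFTR−/−.

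Neuron genes gave 7 of the 53 genes on the low side, with WT animal 2 high in each. That limit was passed by 0.271% of all genes. The list was chosen with earlier results of these data known, so its count against that share tests nothing. Of the list 18 of 24 were below 0, 3 above and 5 below WT without overlap (13.2% and 12.6% of all genes), and the median was -1.69, 0.23 against WT animal 1 and -1.99 against WT animal 2. The sum was 164 and 734 CPM in WT and 224 and 233 CPM in CFTR−/−, and UCHL1 had the highest mean. UCHL1, a ubiquitin hydrolase of neurons and islet cells, was 32.2 and 168 CPM in WT against 60.6 and 68.7 CPM in CFTR−/−, and the receptor RET 40.2 and 21.9 CPM in WT against 38.4 and 49.8 CPM in CFTR−/−, which both overlapped. STMN2, a tubulin-binding protein of growing axons, was 3.25 and 152 CPM in WT against 4.32 and 6.30 CPM in CFTR−/− (log2 fold change -3.87, SE 1.13, unadjusted p = 0.00379, but a log2 value of 0.70 without WT animal 2). The neurofilament NEFL was 1.36 and 54.5 CPM in WT against 2.55 and 1.47 CPM in CFTR−/− (log2 fold change -3.80, SE 1.13, unadjusted p = 0.0048, but 0.56 without WT animal 2), and the neuropeptide NPY 0.624 and 40.0 CPM in WT against 0.936 and 1.33 CPM in CFTR−/− (log2 fold change -4.16, SE 1.16, unadjusted p = 0.00283, but 0.85 without it). The direction of all 3 thus came from 1 animal. ELAVL2, an RNA-binding protein of neurons, was 0.354 and 7.01 CPM in WT against 0.329 and 0.178 CPM in CFTR−/− (log2 fold change -3.84, SE 1.21, unadjusted p = 0.00686), and CEND1 0.638 and 14.9 CPM in WT against 0.555 and 0.495 CPM in CFTR−/− (log2 fold change -3.88, SE 1.17, unadjusted p = 0.00488), with WT animal 1 only just above CFTR−/−.

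Schwann cell and activated stellate genes were below 0 in 18 of 23 (median -0.26; 0.12 and -0.76 against WT animals 1 and 2), with 3 above and 2 below WT without overlap, shares near or under those of all genes (13.2% and 12.6%), and sums of 271 and 447 CPM in WT and 284 and 261 CPM in CFTR−/−. ERBB3, the neuregulin receptor with the highest mean, overlapped at 99.8 and 52.8 CPM in WT against 79.4 and 58.4 CPM in CFTR−/−. The sodium channel SCN7A was 0.213 and 0.345 CPM in WT against 0.641 and 0.891 CPM in CFTR−/− (log2 fold change 1.46, SE 0.92, unadjusted p = 0.134), low in all animals and without overlap.

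Fat cell genes were mostly lower in CFTR−/−, and much more so against WT animal 2 than against WT animal 1. Of these 21 of 21 were below 0 and 13 lay below WT without overlap, where 12.6% of all genes did (median -2.61; -0.75 against WT animal 1 and -3.35 against WT animal 2). The sum was 200.3 and 893 CPM in WT and 138 and 126 CPM in CFTR−/−, FASN having the highest mean. FASN, which makes fatty acids, was 77.3 and 147 CPM in WT against 55.9 and 36.1 CPM in CFTR−/− (log2 fold change -1.28, SE 0.44, unadjusted p = 0.0109), and PLIN1, which coats lipid droplets, 2.71 and 14.6 CPM in WT against 0.641 and 0.792 CPM in CFTR−/− (log2 fold change -3.59, SE 1.19, unadjusted p = 0.00876). ADIPOQ, the hormone adiponectin, was 12.5 and 175 CPM in WT against 0.277 and 5.86 CPM in CFTR−/− (log2 fold change -4.94, SE 2.11, unadjusted p = 0.0335). In these 3 even WT animal 1 lay above both CFTR−/− animals. From ADIPOQ, the paper proposes contamination by adipose tissue in 1 WT sample of 120 days, which was not tested here. UCP1, the uncoupling protein of brown fat, was 0.142 and 4.10 CPM in WT against 0 and 0 CPM in CFTR−/−, PLIN4, another lipid droplet protein, 0.283 and 2.52 CPM in WT against 0 and 0 CPM in CFTR−/−, and CFD, an adipokine, 3.71 and 127 CPM in WT against 4.77 and 8.89 CPM in CFTR−/−, each high in WT animal 2 only. With 0 counts in CFTR−/−, the WT mean of UCP1 was at least 38.1-fold and that of PLIN4 at least 25.2-fold higher.

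Erythroid genes were the list with the lowest median, -3.92 (-1.63 against WT animal 1, -3.90 against WT animal 2). Of these 14 of 14 were below 0, and 14 without overlap, where 12.6% of all genes were. The sum was 42.8 and 176 CPM in WT and 14.2 and 15.6 CPM in CFTR−/−, ALAS2 having the highest mean. ALAS2, the first enzyme of heme synthesis in red cells, was 7.31 and 43.9 CPM in WT against 3.33 and 4.62 CPM in CFTR−/− (log2 fold change -2.69, SE 1.06, unadjusted p = 0.0236), and AHSP, which stabilizes alpha globin, 2.78 and 52.0 CPM in WT against 1.13 and 1.62 CPM in CFTR−/− (log2 fold change -4.31, SE 1.82, unadjusted p = 0.0317). EPB42, a membrane protein of red cells, was 20.1 and 13.7 CPM in WT against 6.47 and 5.70 CPM in CFTR−/− (log2 fold change -1.47, SE 0.56, unadjusted p = 0.0185) and was higher in WT animal 1 than in WT animal 2. The blood group protein KEL was 0.411 and 2.03 CPM in WT against 0.0347 and 0 CPM in CFTR−/−, a WT to CFTR−/− ratio of 60.7 with a 95% counting interval of 16.5 to 506. In CFTR−/− it was at or near 0. The part of these blood, immune, nerve and fat cell transcripts in the other differences was not tested.

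Genes of stellate or smooth muscle cells, kept as 1 list, were below 0 in 14 of 16. In the list 1 lay above and 4 below WT without overlap, against 13.2% and 12.6% of all genes. The median was -0.71 (-0.01 and -1.07 against WT animals 1 and 2), and the sum was 763 and 1335 CPM in WT and 747 and 859 CPM in CFTR−/−. TPM1, the tropomyosin with the highest mean, overlapped at 512 and 458 CPM in WT against 463 and 587 CPM in CFTR−/−. The actins ACTA2 (23.2 and 182 CPM in WT against 36.7 and 34.1 CPM in CFTR−/−) and ACTG2 (0.865 and 31.7 CPM in WT against 0.537 and 0.495 CPM in CFTR−/−; log2 fold change -4.97, SE 1.58, unadjusted p = 0.00667) were high in WT animal 2 only. Actins are a family of close copies, so their single values are uncertain. NOTCH3, a receptor of mural cells, was 22.6 and 27.02 CPM in WT against 15.6 and 14.4 CPM in CFTR−/− (log2 fold change -0.72, SE 0.45, unadjusted p = 0.13), with CFTR−/− below both WT animals.

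Stroma genes were below 0 in 24 of 30 (median -0.21; 0.23 and -0.48 against WT animals 1 and 2), yet only 1 above and 3 below WT did not overlap (13.2% and 12.6% of all genes). The sum was 8197 and 14944 CPM in WT and 11783 and 8329.9 CPM in CFTR−/−, COL3A1 having the highest mean. The collagens COL3A1 (2310.2 and 4095 CPM in WT against 3475 and 2491 CPM in CFTR−/−) and COL1A1 (1484 and 1608 CPM in WT against 2019.7 and 1008 CPM in CFTR−/−) and the matrix proteins DCN (251 and 399 CPM in WT against 427 and 325 CPM in CFTR−/−) and SPARC (823 and 1307 CPM in WT against 1169 and 943 CPM in CFTR−/−) overlapped between genotypes. ELN, for elastin, was 101 and 1339.9 CPM in WT against 94.8 and 76.4 CPM in CFTR−/− (log2 fold change -3.07, SE 1.14, unadjusted p = 0.0172), with WT animal 1 close to CFTR−/−, and fibronectin, FN1, 90.0 and 172 CPM in WT against 87.2 and 54.9 CPM in CFTR−/− (log2 fold change -0.88, SE 0.62, unadjusted p = 0.179).

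Endothelial genes were below 0 in 14 of 15 (median -0.30; 0.08 and -0.45 against WT animals 1 and 2), 4 below WT without overlap (12.6% of all genes), with sums of 632 and 1273 CPM in WT and 746 and 724 CPM in CFTR−/−. CLEC3B had the highest mean at 51.0 and 304 CPM in WT against 107 and 108 CPM in CFTR−/− and overlapped. The angiopoietin receptor TEK was 12.8 and 19.2 CPM in WT against 10.7 and 10.8 CPM in CFTR−/− (log2 fold change -0.57, SE 0.49, unadjusted p = 0.263) and the cadherin CDH5 35.3 and 36.7 CPM in WT against 33.3 and 23.5 CPM in CFTR−/− (log2 fold change -0.34, SE 0.45, unadjusted p = 0.453), where CFTR−/− lay below WT by little.

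**Figure D3:**
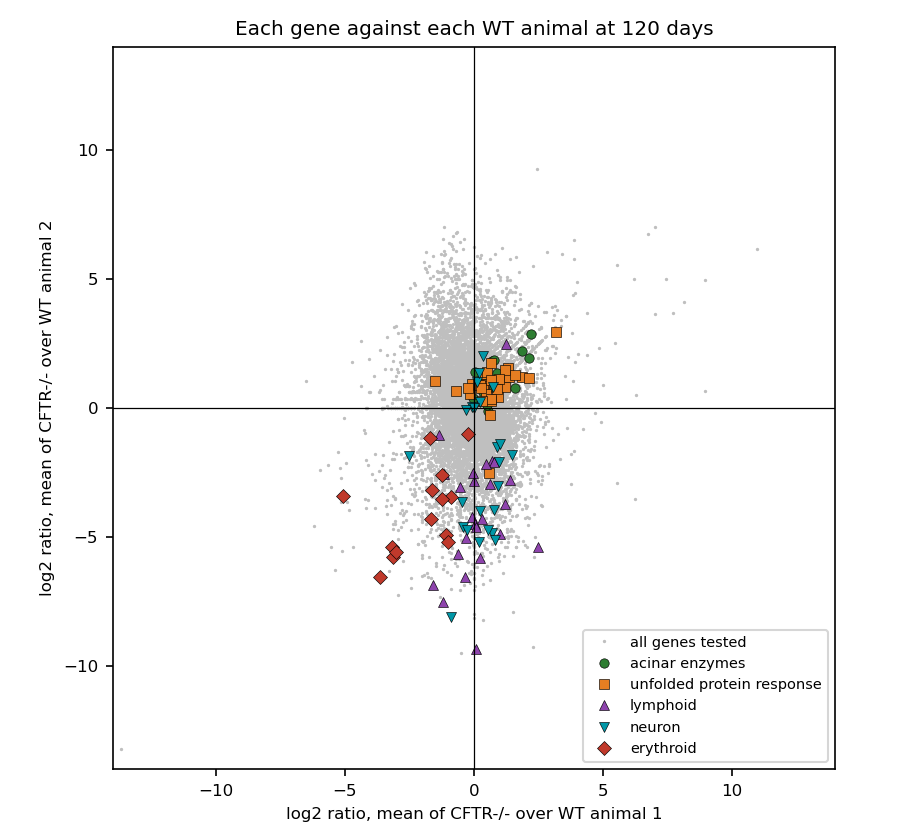
Log2 ratio of the mean of both CFTR−/− animals over WT animal 1 (x axis) and over WT animal 2 (y axis) at 120 days, 1 point per gene tested, with 5 lists in colour. Acinar enzyme and unfolded protein response genes lie mostly above 0 on both axes, many lymphoid and neuron genes far below 0 on the y axis but near 0 on the x axis, and erythroid genes below 0 on both.

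Genes of hepatocyte type were above 0 in 10 of 14, 8 above WT without overlap, against 13.2% of all genes (median 0.95; 0.67 and 1.84 against WT animals 1 and 2), with sums of 469 and 622 CPM in WT and 992 and 1499 CPM in CFTR−/−. ALB, for albumin, was 26.1 and 20.3 CPM in the WT animals and 194 and 241 CPM in the CFTR−/− animals (log2 fold change 3.23, SE 2.09, unadjusted p = 0.145), and AHSG, a plasma glycoprotein, 5.58 and 43.4 CPM in WT against 271 and 230.0 CPM in CFTR−/− (log2 fold change 3.36, SE 1.69, unadjusted p = 0.0657). Both CFTR−/− animals were several times above WT in each. APOA1, an apolipoprotein with the highest mean of the list, overlapped at 214 and 292 CPM in WT against 209.6 and 754 CPM in CFTR−/−.

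Of the enterocyte list 4 of 9 were above 0 and 1 below (median 0 against each WT animal and both), 3 above WT without overlap (13.2% of all genes), while APOA4, CDX1, FABP1, FABP2 and SI were at 0 in all 4 animals. The sum was 443 and 186 CPM in WT and 352 and 370.5 CPM in CFTR−/−, most of it ANPEP, an aminopeptidase that overlapped at 351 and 139.5 CPM in WT against 251 and 264 CPM in CFTR−/−. CDX2, a transcription factor of the gut, was 1.73 and 1.02 CPM in WT against 3.69 and 3.74 CPM in CFTR−/− (log2 fold change 1.43, SE 0.61, unadjusted p = 0.0321). MEP1A, a brush border protease, had 0 counts in WT and lay at the floor in CFTR−/− (0.0693 and 0.0594 CPM).

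Cell cycle genes leaned lower in CFTR−/−: 21 of 30 were below 0, 1 above and 9 below WT without overlap, against 13.2% and 12.6% of all genes (median -0.16; -0.19 and -0.05 against WT animals 1 and 2), with sums of 892 and 789 CPM in WT and 761 and 759 CPM in CFTR−/−. TOP2A, a topoisomerase of dividing cells, was 51.8 and 39.8 CPM in WT against 33.8 and 30.7 CPM in CFTR−/− (log2 fold change -0.505, SE 0.48, unadjusted p = 0.313), and the helicase subunit MCM6 50.2 and 42.9 CPM in WT against 35.2 and 38.1 CPM in CFTR−/− (log2 fold change -0.34, SE 0.35, unadjusted p = 0.347). MCM7, with the highest mean, was 106 and 149 CPM in WT against 102 and 107 CPM in CFTR−/− and overlapped.

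Cell death and damage genes were above 0 in 10 of 19 (median 0.02; 0.30 and -0.36 against WT animals 1 and 2), 5 above and 4 below WT without overlap (13.2% and 12.6% of all genes), with sums of 778 and 1802 CPM in WT and 1169 and 1631 CPM in CFTR−/−. FAU, a ribosomal fusion protein with the highest mean of the list, was 526 and 1481 CPM in WT against 914 and 1323 CPM in CFTR−/− and overlapped, WT animal 2 being the highest. The p53 targets BBC3 and CDKN1A were 5.46 and 3.83 CPM in WT against 7.47 and 7.59 CPM in CFTR−/− (log2 fold change 0.70, SE 0.41, unadjusted p = 0.108) and 0.893 and 0.581 CPM in WT against 1.28 and 1.11 CPM in CFTR−/− (log2 fold change 0.70, SE 0.76, unadjusted p = 0.377), both slightly above WT in both CFTR−/− animals.

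Genes linked to pancreatitis were above 0 in 4 of 6, 2 above WT without overlap, against 13.2% of all genes (median 0.33; 0.28 and 0.79 against WT animals 1 and 2), with sums of 776 and 1069.7 CPM in WT and 1085 and 1628 CPM in CFTR−/− and with GKN1 and REG4 at 0 in all 4 animals. NUPR1, a stress protein of acinar cells with the highest mean, overlapped at 635 and 1003 CPM in WT against 938 and 1492 CPM in CFTR−/−, and ANXA10, an annexin, was 59.0 and 21.7 CPM in WT against 89.4 and 67.2 CPM in CFTR−/− (log2 fold change 0.96, SE 0.58, unadjusted p = 0.123). REG1A was not found by name in the sources used and is not analysed here. Metallothionein and zinc genes were above 0 in 7 of 12, 4 above and 2 below WT without overlap, against 13.2% and 12.6% (median 0.23; 0.00 and 0.60 against each WT animal), with sums of 976 and 599 CPM in WT and 1165 and 1159 CPM in CFTR−/− and MT4 at 0. The zinc importer SLC39A5, with the highest mean, was 712 and 411 CPM in WT against 873 and 841 CPM in CFTR−/− (log2 fold change 0.61, SE 0.62, unadjusted p = 0.342), and SLC30A2, a zinc exporter, 32.7 and 23.7 CPM in WT against 76.5 and 83.3 CPM in CFTR−/− (log2 fold change 1.502, SE 0.67, unadjusted p = 0.0415). For SLC30A2 both CFTR−/− animals were more than 2 times either WT animal. SLC30A10, a manganese exporter, was near the floor at 0.0709 and 0.181 CPM in WT against 0 and 0 CPM in CFTR−/−.

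Imprinted genes were above 0 in 7 of 19 (median -0.15; 0.14 and -0.16 against WT animals 1 and 2), 3 above WT and 0 below without overlap (13.2% and 12.6% of all genes), with sums of 3323 and 2385 CPM in WT and 3733 and 3247 CPM in CFTR−/− and DIO3 and MKRN3 at 0. GNAS, the G protein subunit with the highest mean, overlapped at 2196 and 1039.7 CPM in WT against 2089 and 1730.0 CPM in CFTR−/−. DIRAS3 was 219.9 and 120.5 CPM in WT against 286 and 299 CPM in CFTR−/− (log2 fold change 0.78, SE 0.67, unadjusted p = 0.258), and DLK1, a Notch ligand homologue of fetal tissues, 452 and 648 CPM in WT against 857 and 750.3 CPM in CFTR−/− (log2 fold change 0.55, SE 0.59, unadjusted p = 0.371), both with CFTR−/− above WT.

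Over the other 4 ages, the quasi-likelihood test found 15 genes (0.0768%) between CFTR−/− and WT at the adjusted threshold, and 1510 (7.73%) had an unadjusted p of at most 0.01. That contrast compares none of the 120-day libraries, but both contrasts use the same estimate of the spread from all 20 libraries. Left-out libraries moved the count called from 0 (without CFTR−/− animal 2 of 80 days) to 473 (without CFTR−/− animal 1 of 100 days). CCL26 (log2 fold change 2.56, SE 0.30, edgeR adjusted p = 0.00279), SMPDL3A (log2 fold change -1.52, SE 0.22, edgeR adjusted p = 0.00915), STPG1 (log2 fold change -4.51, SE 0.64, edgeR adjusted p = 0.00915) and ALG1 (log2 fold change -1.04, SE 0.12, edgeR adjusted p = 0.00266) were among them, with LOC105605981 and LOC105602321. At 120 days ALG1, a mannosyltransferase of N-glycan synthesis, was 26.5 and 24.3 CPM in WT against 15.7 and 16.1 CPM in CFTR−/− (log2 fold change -0.67, SE 0.23, unadjusted p = 0.0102). Its highest CFTR−/− value over all ages, 19.7 CPM, lay below its lowest WT value, 20.04 CPM. Of the 49 genes on the high side at 120 days, 18 had an unadjusted p of at most 0.01 in the same direction at the other ages, and of the 53 on the low side 18. Over all genes tested 7.73% had such a p in either direction. Because each gene's spread is shared, the p-values of both contrasts are linked and these counts are no independent check.

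No gene differed between 120 days and the other ages by test: 0 (0%) passed an adjusted p of at most 0.01 in edgeR for the genotype difference at 120 days against the mean of the other 4 ages, and 1414 (7.24%) had an unadjusted p under 0.05. HSPA5 was lower in both CFTR−/− animals than in both WT animals at 3 of the other ages. At term it was 2609 and 8873 CPM in WT and 1948 and 979.9 CPM in CFTR−/−, and at 100 days 1283 and 1172 CPM in WT and 1005 and 518 CPM in CFTR−/−, while at 120 days CFTR−/− was above WT (difference of log2 fold changes 2.27, SE 0.62, unadjusted p = 0.00228). INHBE, high in CFTR−/− at 120 days, was 31.8 and 159 CPM in WT and 105 and 25.7 CPM in CFTR−/− at term. Its difference between 120 days and the other ages was 3.52 on the log2 scale (SE 0.99, unadjusted p = 0.00285).

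**Figure D4:**
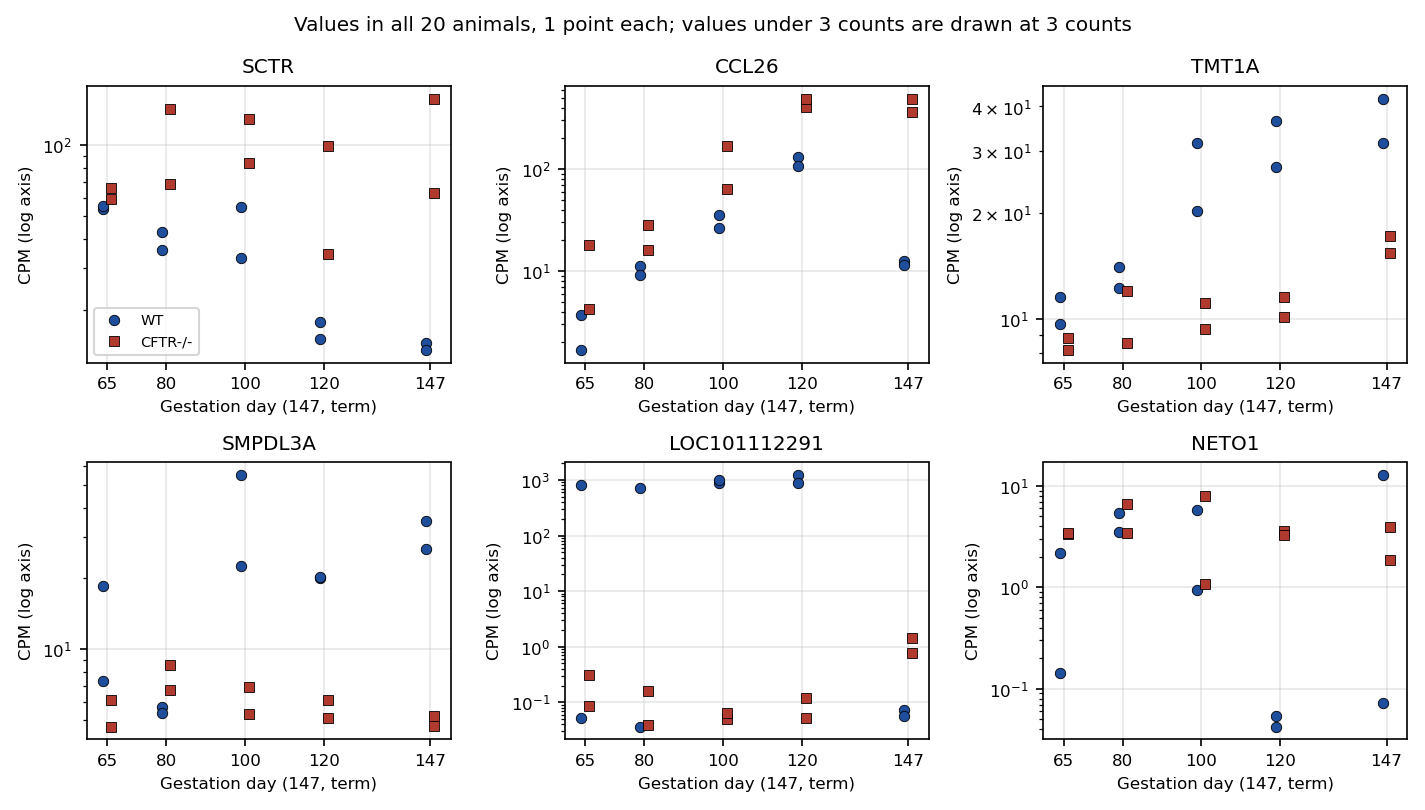
Level of 6 genes in CPM on a log axis against gestation day in all 20 animals, 1 point each (blue circles WT, red squares CFTR−/−), values under 3 counts drawn at 3 counts. SCTR and CCL26 lie higher and TMT1A lower in CFTR−/− at all 5 ages. SMPDL3A is lower in CFTR−/− at 120 days and 3 other ages but higher at 80 days. NETO1 and LOC101112291 vary between WT libraries from the floor upward.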

How the data were processed

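The data are bulk RNA-seq of whole pancreas tissue, 1 library per animal, taken from the table that holds both genotypes. The counts are reads per gene that the authors aligned with STAR (2.6 in their processing notes, another version in their methods) to Oar_v4.0, assigned with featureCounts 1.6.3 and deposited without normalization. The table lists 24478 genes and 0 other per-sample columns. The tables of single genotypes were not used.

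From these counts, genes were kept by filterByExpr (minimum count 10, minimum total count 15), scaled by TMM and modelled with edgeR 4.0.16 (limma 3.58.1, R 4.3.3), using estimateDisp, glmQLFit and glmQLFTest on 10 groups of genotype and age, all 20 libraries. The contrasts were CFTR−/− minus WT at 120 days, the same over the other 4 ages, and the difference of both. DESeq2 1.42.0 served as another test. Log2 ratios to each WT animal use a prior count of 2. Floors use 3 counts per library. Plots were made with matplotlib 3.10.9. The steps were tested on simulated data.

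Named genes are CFTR, those the study names at 120 days or as markers, and in each direction the 15 genes of smallest p among those with a 1.5-fold difference, no overlap and a mean of at least 1 CPM in the higher genotype (780 eligible above, 812 below), with at most 2 unnamed loci each, so that 6 higher and 4 lower loci are not given. Each list gives its member of highest mean CPM, those past the unadjusted limit and the 2 of largest fold change without overlap, and lists over 4-fold apart between WT animals their 3 members of highest mean. A few genes that this rule takes are not reported here. Genes outside this rule (CCL26, RBP4, ALDH1A3, KCNE3, F10, HOPX, HIBADH, JAGN1, HHIP, CHRD, KLF5, ALG1, HSPA5, MANF, SST, CHGA, CLPS, SYCN, AQP8, CD79B, CXCL13, LOC101112291, LOC105604393) were chosen after their values were seen. Members and the 25 lists (492 of 541 entries found) were chosen with earlier results of these data known. Names come from the table or, for 573 of 8432 numbered loci (4235 matched by gene ID), from RefSeq (ARS-UI_Ramb_v3.0). The prose gives the lists by their counts and medians, with no test.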

Additional observations from a re-analysis of the deposited data

Results flagged for a closer look

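TFF2 differed in direction between ages. Both CFTR−/− animals were above both WT animals at 120 days (700.4 and 909 CPM in WT, 1262 and 1352 CPM in CFTR−/−) and below them at each of the 4 other ages, for example 6434 and 4031 CPM in WT against 3780.3 and 2060.2 CPM in CFTR−/− at term. The log2 fold change at 120 days minus the mean of the other ages was 1.59 (SE 0.91), and edgeR's quasi-likelihood test of that difference gave an unadjusted p of 0.0998 and a Benjamini-Hochberg adjusted p of 0.757.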

How the results depend on the processing

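Calls at 120 days stayed at 0 with DESeq2 size factors, no filter, only the 4 libraries of 120 days, both groups of 100 days left out, an adjusted p of 0.05, glmTreat and each animal left out (0 to 0). They were 10 with DESeq2's Wald test and 3 with the likelihood ratio test. The 102 genes at the unadjusted limit (48.0% higher) became 368 with DESeq2's Wald test (27.7%), 298 with the likelihood ratio test (26.5%), 59 with the 4 libraries alone (69.5%), 166 without the groups of 100 days, and 17 to 647 with 1 animal left out, where the lone animal is assumed to vary like the other groups. The causes were not tested. Leaving out WT animal 2 of 120 days and CFTR−/− animal 2 of 100 days together, chosen after seeing the data, gave 0 calls and 102 genes at the unadjusted limit (39 shared).

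The replicate number as a block gave 0 calls and 91 genes at the unadjusted limit. Numbers only name animals and do not pair them: same-numbered deviations at 120 days correlated at 0.33, inside the range over all pairs of groups (-0.40 to 0.45).

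Genes that differed between 120 days and the other ages stayed at 0, or 0 to 1 with 1 animal left out. The 15 genes called over the other ages, a contrast added after seeing the data, became 69 without a filter, 7 with the block, 642 with DESeq2's Wald test, and 0 to 473 with 1 library left out.

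Directions were followed for 107 of 140 named genes, those without overlap, past the unadjusted limit, or CFTR, a choice that itself favours a stable direction. Of their 1170 log2 fold changes under 11 settings, 1161 kept their direction. The other named genes overlap between genotypes and were not run, and the direction of many differs between WT animals, as for C1QB (0.84 against animal 1, -2.68 against animal 2), UCHL1 (1.00 and -1.38) and ACTA2 (0.61 and -2.36). Among those followed, the reversed ones were CFTR without WT animal 2 (-0.29), without CFTR−/− animal 2 (-0.62) and with both libraries above left out (-0.29), and, without WT animal 2 and with both left out, STMN2 (0.70 and 0.70), NEFL (0.56 and 0.56) and NPY (0.85 and 0.85). With 1 animal left out the ranges were -0.62 to 0.54 for CFTR, -4.84 to 0.70 for STMN2, -4.76 to 0.56 for NEFL and -5.14 to 0.85 for NPY. The cause was not tested beyond the animal left out. Leaving out TMM shifts the log2 ratio of summed levels by 1 constant for all lists, set by the normalization factors (1.096 and 0.937 in WT, 0.909 and 0.793 in CFTR−/−), and so tests no list by itself. For acinar enzymes it gives 0.37 in place of 0.63. For heat shock (-0.06 from 0.20) and cell death and damage (-0.03 from 0.22) the side of 0 depends on the scaling. Counts cannot tell levels under 3 counts from 0, and near-identical copies may share reads.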
